A study of Mus musculus with 26 samples.

Results

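The clustered protocadherins are the genes of the Pcdh alpha, beta and gamma clusters, and they were picked by symbol, as the rows named Pcdha, Pcdhac, Pcdhb, Pcdhga, Pcdhgb or Pcdhgc with a number. They made up 57 of the 55291 gene symbols in the RNA-seq counts, with 13 in the alpha cluster, 22 in the beta cluster and 22 in the gamma cluster. On GRCm38, the mm10 build of the files, the clusters follow each other on chromosome 18, with alpha at 36930184 to 37187661, beta at 37264938 to 37524479 and gamma at 37661793 to 37841873 in GENCODE M21.

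Clustered protocadherins are cell-surface proteins of the cadherin family that bind the same isoform on a neighbouring cell, and in the nervous system they give neurons a surface identity used in self-avoidance. In the alpha and gamma clusters each isoform starts from a variable first exon with its own promoter, which is spliced to constant exons shared by the cluster, whereas beta members have no shared constant exons. CTCF and cohesin bring distal enhancers to these promoters, and the choice among the alternate isoforms is largely stochastic in neurons, whereas the C-type isoforms at the end of the alpha and gamma clusters follow a different, more constitutive pattern.

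The study asked how binding of RNA by CTCF shapes chromatin loops and gene expression in mouse embryonic stem cells, or ESCs, and in neural progenitors derived from them, or NPCs. Rescue lines and truncation lines, all made in E14 cells, were sequenced as rRNA-depleted total RNA, and their counts were deposited as separate tables. In the rescue lines, both endogenous Ctcf alleles carry an mAID-eGFP degron, OsTIR1(F74G) sits at Rosa26, an mCherry reporter sits at Hb9, and Flag-Halo-tagged CTCF is expressed from the Tigre locus under doxycycline, either as WT or without its first zinc finger (ΔZF1), a region that binds RNA. The groups are named by cell type and rescue (ESC-WT, NPC-ΔZF1), and all rescue cells were treated with 1 µM 5-Ph-IAA and 1 µg/ml doxycycline for 24 h, and each group had 2 libraries. WT and ΔZF1 CTCF were each carried by 1 clone, so that the clone and the form of CTCF cannot be told apart. The other table compared parental E14 WT cells with lines that carry, on both alleles, an eGFP cassette with an SV40 polyadenylation signal behind the first coding exon of Podxl or Grb10 (Podxl pA and Grb10 pA), with 3 libraries of each line in either cell type and no treatment. NPCs were collected after 2 days of differentiation on laminin in both tables.

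Library totals ran from 6425179 to 28730435 counts in the rescue lines and from 1907505 to 8845087 in the truncation lines, and members took 162 to 801 and 69 to 256 of these counts per library, or 0.00191% to 0.00472% of a library. The study calls the replicates biological, and as neither it nor the labels say whether they came from separate cultures or differentiations, the p-values measure the spread between these libraries. As a check of the targeted genes, Podxl was at 26.4 to 34.9 CPM (counts normalised to library size) in ESC E14 WT against 3.01 to 12.9 in ESC Podxl pA, and at 232 to 259 in NPC E14 WT against 20.8 to 24.3 in NPC Podxl pA. Grb10 was at 118 to 127 CPM in ESC E14 WT against 30.4 to 35.3 in ESC Grb10 pA, and at 769 to 814 in NPC E14 WT against 52.2 to 59.4 in NPC Grb10 pA. The missing zinc finger itself does not show in counts per gene. The 10 pluripotency markers summed to 5452 to 5518 CPM in ESC-WT and to 598 to 787 in NPC-WT, and the 11 neural progenitor markers to 81.6 to 92.9 and 157 to 204, with Fabp7 and Hes5 at 0 counts in both groups. In NPC E14 WT the progenitor markers summed to 284 to 290 CPM, and all 11 had a count.

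Which bases of a member can be counted depends on its cluster. By GENCODE M21, a median of 46.4% of the exon bases of an alpha member (7% to 51.4%) and of 54.7% of a gamma member (0% to 68.5%) lie on no other gene, against 100% (36.5% to 100%) of a beta member. The shared bases are mostly the constant exons. The 3 read-through genes Gm37013, Gm37388 and Gm42416, which span the clusters and use exons of the members, were listed with 0 counts in every library. How the counting treated reads on shared bases is not given in the sources used here, so values of alpha and gamma members are read here as those of their own variable exons, and levels are compared between genes only per kb of bases that no other gene shares. Pcdha4 has 404 such bases and Pcdhga10 has 0, and neither was given a level per kb. Pcdhga10 had at most 1 count in a library. Its low counts and the 0 counts of the read-through genes are not read as absence of their RNA. Strand was not used in the counting, and other genes lie on exons of some members, such as Gm26672 on Pcdhga11 and Pcdhga12, so that reads there cannot be told apart.

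The ESCs and early NPCs transcribed the gamma cluster, while the alpha and beta clusters were close to silent. Over the 8 rescue libraries together, gamma members took 3911 counts, beta members 171 and alpha members 60. In the 18 truncation libraries the clusters took 2601, 59 and 50 counts. All 22 gamma members had a count in at least 1 library of each table, against 6 of 13 alpha and 17 of 22 beta members for the rescues, and 7 of 13 and 16 of 22 for the truncation lines. The members at 0 counts in all 26 libraries were Pcdha4, Pcdha6, Pcdha8, Pcdhb10, Pcdhb11 and Pcdhb12, and a count of 0 over the libraries of a group allows a level of up to 0.0540 CPM in NPC-ΔZF1 and up to 0.256 CPM in ESC Grb10 pA, the extremes of the 10 groups (3 counts, counting error only). The filter on low counts left 19 gamma members to test among the rescues, but 9 for the truncation lines, and it removed every alpha and beta member. A member that is high in 1 group only can pass through that group, so counts of calls below describe the members that passed and not the whole family. In bulk RNA, fewer cells that express a gene and less RNA per cell cannot be told apart.

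**Figure D1:**
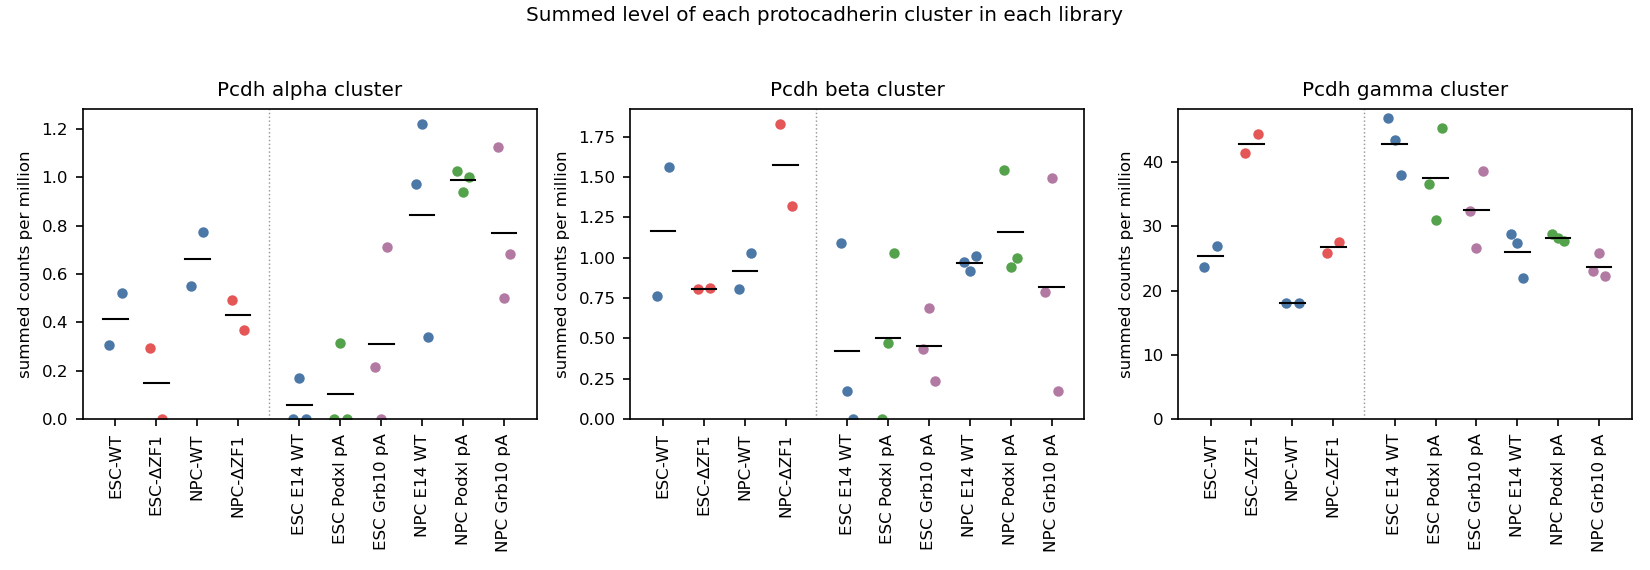
Summed CPM of all members of the alpha, beta and gamma clusters in each library (points) with the group mean (line), for the rescue lines left of the dotted line and the truncation lines right of it, which were normalized separately. Gamma sums lie between 18.05 and 46.9 CPM, whereas no library exceeds 1.22 CPM for alpha or 1.83 CPM for beta.

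Of the alpha cluster, most counts belonged to Pcdhac2, the C-type isoform next to the constant exons. Pcdhac2 had 2 and 8 counts in the ESC-WT libraries, 4 and 0 in ESC-ΔZF1, 10 and 9 in NPC-WT and 8 and 7 in NPC-ΔZF1. As levels these were 0.414 ± 0.153 CPM (SD, n = 2) in ESC-WT against 0.147 ± 0.208 in ESC-ΔZF1, and 0.599 ± 0.247 in NPC-WT against 0.270 ± 0.0173 in NPC-ΔZF1. The WT libraries were above the ΔZF1 libraries in each cell type, at no more than 10 counts a library, and the ranges of NPC-WT and ESC-WT overlapped. In the truncation lines Pcdhac2 was at 0 counts in all 3 ESC E14 WT libraries, had 1 count in 1 of the ESC Podxl pA libraries, and had 1, 0 and 2 counts in ESC Grb10 pA. It had 3, 8 and 0 counts in NPC E14 WT, 3, 4 and 5 in NPC Podxl pA and 9, 2 and 4 in NPC Grb10 pA. Every NPC Podxl pA and NPC Grb10 pA library was above every library of the ESCs of the same line, whereas 1 NPC E14 WT library was at 0 like the ESCs. The mean of NPC E14 WT, 0.731 CPM, was 3.17-fold the level of ESC E14 WT taken at 3 counts over its libraries. This bounds the ESC side only, as the NPC mean rests on 3, 8 and 0 counts. Pcdhac2 did not pass the filter. Without the filter, edgeR's quasi-likelihood test called it higher in NPC E14 WT with a log2 fold change of 5.00 and an adjusted p = 0.00514, and DESeq2 called it with 4.14 and an adjusted p = 0.0384; both fold changes are set against a group at 0 counts and are no estimate of size.

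The other C-type alpha isoform, Pcdhac1, had 0 counts in the rescue lines and 1 count in the truncation lines, in ESC Podxl pA replicate 2. The alternate alpha isoforms were not detected in the rescue ESCs at this depth, with 0 counts over all 4 libraries. In the rescue NPCs they summed to 3 and 0 counts in NPC-WT and to 6 and 3 in NPC-ΔZF1, and in the truncation lines to 0 or 1 count in each library. Of these, Pcdha11 had 2 counts in NPC-WT replicate 1 and 2 counts in each NPC-ΔZF1 library, Pcdha7 had 1 count in NPC-WT replicate 1 and in NPC-ΔZF1 replicate 1, and Pcdha12 had 1 count in each NPC-ΔZF1 library. NPC-ΔZF1 libraries were the deepest of the study, and the summed levels, 0 to 0.127 CPM in NPC-WT and 0.110 to 0.211 CPM in NPC-ΔZF1, overlapped.

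Beta members, most of which have only a variable exon, had few counts, spread over many members. The beta cluster summed to 0.764 and 1.57 CPM in ESC-WT against 0.808 and 0.810 in ESC-ΔZF1, and 0.805 and 1.03 in NPC-WT against 1.32 and 1.83 in NPC-ΔZF1. Both NPC-ΔZF1 libraries were above the NPC-WT libraries, with 36 and 52 counts against 12 and 19, a ratio of means of 1.72. The ESC-WT range took in both ESC-ΔZF1 libraries.

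Over the rescue libraries together, Pcdhb17 had the most counts of the beta members, with levels of 0.153 and 0.130 CPM in ESC-WT against 0.0734 and 0.135 in ESC-ΔZF1, and 0.254 and 0.344 in NPC-WT against 0.564 and 0.441 in NPC-ΔZF1. The NPC libraries lay above the ESC libraries for both forms of CTCF, and NPC-ΔZF1 above NPC-WT, at 1 to 16 counts per library. Pcdhb14 was at 0.153 and 0.0652 CPM in ESC-WT against 0.441 and 0.338 in ESC-ΔZF1, and at 0.0424 and 0 in NPC-WT against 0.282 and 0.184 in NPC-ΔZF1. ΔZF1 libraries were therefore the higher ones in both cell types, at 5 to 8 counts each against 0 or 1. Pcdhb22 had 0 and 4 counts in ESC-WT against 4 and 0 in ESC-ΔZF1, and 7 and 1 in NPC-WT against 10 and 1 in NPC-ΔZF1, and these overlapped throughout. Pcdhb7 had 0 and 5 counts in ESC-WT against 0 and 3 in ESC-ΔZF1, and 2 and 1 in NPC-WT against 0 in NPC-ΔZF1. In the truncation lines no beta member exceeded 4 counts in a library, and the summed levels ran from 0 to 1.09 CPM in the ESC libraries and from 0.171 to 1.54 CPM in the NPC libraries. None of the beta members passed the filter, and none was called where they were tested, without the filter or in DESeq2.

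Within the gamma cluster the levels were uneven. Per kb of unshared bases, the C-type isoform Pcdhgc3 led in 9 of the 10 groups, with 2.19 ± 0.293 CPM per kb (n = 2) in NPC-WT, 3.86 ± 0.638 in NPC-ΔZF1, 3.04 ± 0.207 in ESC-ΔZF1, 4.13 ± 0.474 (n = 3) in ESC E14 WT and 2.50 ± 1.56 in NPC E14 WT. In ESC-WT, Pcdhga12 at 1.51 ± 0.120 CPM per kb and Pcdhgc3 at 1.501 ± 0.461 did not differ beyond their spread, and Pcdhga11 at 1.25 ± 0.217 and Pcdhga1 at 1.05 ± 0.268 followed, each overlapping its neighbour in this order. In NPC-WT the next highest was Pcdhga11 at 0.866 ± 0.160 CPM per kb, far below Pcdhgc3. The other C-type gamma isoforms, Pcdhgc4 and Pcdhgc5, stood low, at 0.18 and 0.19 CPM per kb in ESC-WT and at 0.19 and 0.31 in NPC-WT. In CPM, Pcdhgc4 was at 0.611 and 0.652 in ESC-WT against 0.514 and 0.473 in ESC-ΔZF1, and 0.720 and 0.602 in NPC-WT against 0.775 and 0.772 in NPC-ΔZF1. Pcdhgc5 was at 1.07 and 0.652 CPM in ESC-WT against 0.514 and 1.01 in ESC-ΔZF1, and 1.14 and 1.72 in NPC-WT against 1.20 and 1.10 in NPC-ΔZF1. The Pcdhgc5 libraries of the NPCs lay above those of the ESCs in both rescues, and those of WT and ΔZF1 overlapped in each cell type. In the truncation lines group means ran from 0.260 to 1.16 CPM for Pcdhgc4 and from 0.862 to 2.32 CPM for Pcdhgc5, with the highest Pcdhgc5 mean in NPC Grb10 pA. Pcdhga6 and Pcdhgb1 were among the lowest, with group means of at most 0.122 and 0.198 CPM per kb.

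**Figure D2:**
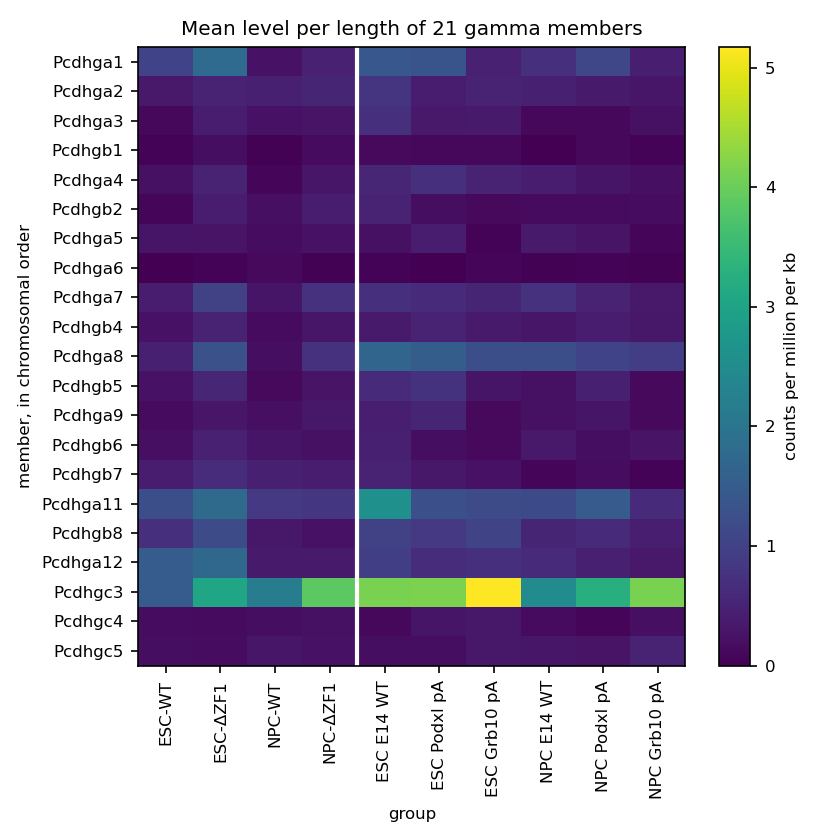
Mean level of 21 gamma members in each group, in CPM per kb of exon bases that no other gene shares, with members in chromosomal order from top to bottom and the rescue and truncation tables separated by the white line. Pcdhgc3 is the brightest row in every group but ESC-WT, where Pcdhga12 stands beside it, and Pcdhga1, Pcdhga8, Pcdhga11 and Pcdhga12 are brighter in ESCs than in NPCs of the same line except Pcdhga11 in Podxl pA.

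Differentiation was compared within each line, from ESCs to NPCs. The summed level of the gamma cluster was lower in NPCs of all 5 lines, without overlap between the libraries. It was 25.3 ± 2.30 CPM (n = 2) in ESC-WT and 18.1 ± 0.0626 in NPC-WT, a ratio of 0.715, and 42.9 ± 2.09 in ESC-ΔZF1 and 26.7 ± 1.16 in NPC-ΔZF1, a ratio of 0.623. In E14 WT it was 42.8 ± 4.45 (n = 3) in ESCs and 26.02 ± 3.64 in NPCs, a ratio of 0.608. Podxl pA and Grb10 pA gave ratios of 0.751 and 0.729.

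The decline was uneven between the types of gamma isoform. Gamma A members summed to 15.6 ± 0.893 CPM in ESC-WT and to 7.85 ± 0.164 in NPC-WT, and gamma B members to 5.48 ± 0.831 and 4.16 ± 0.313. Gamma C members summed to 4.23 ± 0.573 in ESC-WT and to 6.08 ± 0.212 in NPC-WT, so that the C-type sum was 1.44 times higher in NPCs while the gamma A sum was 0.503 of its ESC level. As a result the C-type isoforms took 16.7% ± 0.751 of the gamma counts in ESC-WT and 33.6% ± 1.05 in NPC-WT. In the ΔZF1 rescue these shares were 15.9% ± 0.897 and 33.7% ± 6.07, and NPC libraries lay above ESC libraries in both rescues. The shares did not separate in the truncation lines, with 20.8% ± 4.47 (n = 3) in ESC E14 WT and 24.0% ± 10.5 in NPC E14 WT, 25.4% ± 3.34 and 26.4% ± 2.17 in Podxl pA, and 36.8% ± 3.78 and 44.5% ± 5.43 in Grb10 pA. The C-type sum was lower in NPCs than in ESCs in these 3 lines, with ratios of 0.740, 0.791 and 0.877, and only the Podxl pA ranges did not overlap.

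By edgeR's quasi-likelihood test, with genes called where the Benjamini-Hochberg adjusted p was 0.05 or less and the log2 fold change 0.5 or more in size, 4 of the 19 members tested were lower in NPC-WT than in ESC-WT and 0 were higher. Of all 16641 genes tested, 41.9% were called and 19.9% were called lower, so the members' count is near the background. The members that fell were Pcdhga1, Pcdhga8, Pcdhgb8 and Pcdhga12. All are alternate isoforms, as were all the members tested other than Pcdhgc3, Pcdhgc4 and Pcdhgc5. Pcdhga12 was at 6.57 and 5.87 CPM in ESC-WT against 1.65 and 1.38 in NPC-WT, with no overlap and a log2 fold change of -1.99 ± 0.239 (SE, adjusted p = 9.99e-05). Pcdhga1 was at 2.45 and 3.52 CPM in ESC-WT and at 0.720 and 0.688 in NPC-WT. Its log2 fold change was -2.12 ± 0.339 with an adjusted p = 0.000629, the largest fall among the members tested here. Pcdhga8 was at 0.917 and 0.978 CPM in ESC-WT and at 0.339 and 0.430 in NPC-WT, for a log2 fold change of -1.35 ± 0.495 (adjusted p = 0.0457). Pcdhgb8, annotated as a polymorphic pseudogene, was at 1.38 and 2.09 CPM in ESC-WT and at 0.678 and 0.945 in NPC-WT, for a log2 fold change of -1.21 ± 0.403 (adjusted p = 0.0305). The call of Pcdhga8 was lost without any 1 of the 4 libraries (adjusted p up to 0.227). It was also lost without the filter, with the replicate number as a block, with only the groups compared and in DESeq2. That of Pcdhgb8 was lost without ESC-WT replicate 2 or NPC-WT replicate 1 (up to 0.335), with only the groups compared and in DESeq2. Pcdhga1 and Pcdhga12 were called in every alternative that gave them a value. The C-type isoforms did not pass, with log2 fold changes of 0.48 ± 0.272 for Pcdhgc3, 0.08 ± 0.461 for Pcdhgc4 and 0.79 ± 0.486 for Pcdhgc5.

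In the ΔZF1 rescue, 4 of 19 members were lower in NPC-ΔZF1 than in ESC-ΔZF1 and 0 were higher, where 37.3% of all genes tested were called and 16.9% were called lower. Pcdhga12 was at 6.90 and 7.29 CPM in ESC-ΔZF1 and at 1.66 and 1.47 in NPC-ΔZF1, for a log2 fold change of -2.18 ± 0.214 (adjusted p = 2.45e-05). Pcdhgb8 was at 2.79 and 3.17 CPM in ESC-ΔZF1 and at 0.529 and 0.772 in NPC-ΔZF1, for a log2 fold change of -2.19 ± 0.347 (adjusted p = 0.000624). Pcdhga1 was at 5.73 and 4.53 CPM in ESC-ΔZF1 and at 1.37 and 1.36 in NPC-ΔZF1, for a log2 fold change of -1.90 ± 0.265 (adjusted p = 0.000274). Pcdhga11 was at 2.28 and 2.23 CPM against 1.13 and 0.920, a log2 fold change of -1.13 ± 0.308 (adjusted p = 0.0135). Its call was lost without any 1 of the 4 libraries (up to 0.110) and in DESeq2. In these 4 members every ESC-ΔZF1 library was above every NPC-ΔZF1 library, which is no further support for calls made on the same libraries. Pcdhgc3 was not lower, with a log2 fold change of 0.35 ± 0.222.

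In the parental E14 WT cells 3 of 9 members tested were lower in NPCs and 0 were higher, where 32.8% of the 13268 genes tested were called and 16.3% were called lower. Pcdhga1 was at 3.49, 3.77 and 4.66 CPM in ESC E14 WT and at 1.94, 2.14 and 2.02 in NPC E14 WT, with no overlap and a log2 fold change of -0.90 ± 0.359 (adjusted p = 0.0406). Pcdhga11 was at 3.92, 3.94 and 1.94 CPM in ESCs and at 1.62, 1.38 and 1.35 in NPCs, a log2 fold change of -1.27 ± 0.471 (adjusted p = 0.0287). Pcdhgb5 was at 3.27, 2.57 and 2.72 CPM in ESCs and at 0.647, 1.68 and 1.01 in NPCs, a log2 fold change of -1.17 ± 0.419 (adjusted p = 0.0235). All 3 depended on single libraries: the call of Pcdhga1 was lost without any 1 of the 6 (adjusted p up to 0.105), that of Pcdhga11 without ESC replicate 1 or 2 or NPC replicate 2 or 3 (up to 0.115), and that of Pcdhgb5 without ESC replicate 1 or NPC replicate 1 or 3 (up to 0.0926). DESeq2 called none of the 3. Pcdhga12 was at 4.58, 4.45 and 2.72 CPM in ESC E14 WT and at 2.91, 2.75 and 2.02 in NPC E14 WT, and these ranges overlapped. Pcdhgc3 was at 6.54, 7.88 and 8.15 CPM in ESC E14 WT and at 6.80, 5.50 and 1.35 in NPC E14 WT, where replicate 3, with 4 counts, lay far below the others. Its log2 fold change of -0.64 ± 0.310 had an adjusted p = 0.0913, and without NPC replicate 1 it was called lower, at -0.88 (adjusted p = 0.0414).

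In Podxl pA and Grb10 pA the same contrast gave fewer calls than in E14 WT, and whether the lines differed in this change was not tested. None of the 9 members was called between NPC Podxl pA and ESC Podxl pA by edgeR (0 had an unadjusted p under 0.05) or by DESeq2, where 31.8% of all genes tested were called. In Grb10 pA, 1 of 9 was lower in NPCs, where 34.6% of all genes tested were called and 17.4% were called lower. This was Pcdhgb8, at 2.81, 2.07 and 3.08 CPM in ESC Grb10 pA and at 0.675, 0.498 and 2.05 in NPC Grb10 pA. NPC replicate 3 lay close to the lowest ESC library, and the log2 fold change was -1.32 ± 0.494 (adjusted p = 0.0288), a call lost without ESC replicate 1 or 3 or NPC replicate 1 or 2 (up to 0.179) and in DESeq2.

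The ΔZF1 and WT rescues were then compared in ESCs. The gamma cluster summed to 23.7 and 26.9 CPM in ESC-WT and to 41.4 and 44.4 in ESC-ΔZF1, a ratio of means of 1.69 without overlap. Parental E14 WT ESCs, untreated and normalized separately, summed to 38.1 to 46.9 CPM. This range held both ESC-ΔZF1 libraries and neither ESC-WT library. That is true of the sum and not of every member, as Pcdhga12 was higher in both rescues than in ESC E14 WT (2.72 to 4.58 CPM). The sums of gamma A, B and C members were all higher in ESC-ΔZF1 than in ESC-WT, with ratios of 1.59, 2.06 and 1.61. The C-type members Pcdhgc4 and Pcdhgc5, however, had log2 fold changes of -0.37 and -0.05. Member by member, however, 0 of 19 were called in either direction by edgeR, where 3.61% of all genes tested were called, although 7 had an unadjusted p under 0.05. DESeq2 also called 0. The members with the lowest adjusted p were Pcdhga8, Pcdhgb2, Pcdhgc3 and Pcdhga7. Pcdhga8 was at 0.917 and 0.978 CPM in ESC-WT and at 3.23 and 2.09 in ESC-ΔZF1, for a log2 fold change of 1.46 ± 0.381 (adjusted p = 0.0645). Pcdhgc3 was at 2.14 and 3.33 CPM in ESC-WT and at 5.80 and 5.27 in ESC-ΔZF1, for a log2 fold change of 0.94 ± 0.267 (adjusted p = 0.0866). Pcdhga7 was at 1.07 and 0.913 CPM in ESC-WT and at 2.86 and 2.36 in ESC-ΔZF1, for a log2 fold change of 1.42 ± 0.427 (adjusted p = 0.0993). Pcdhgb2 was at 0.153 and 0.326 CPM in ESC-WT and at 0.881 and 1.28 in ESC-ΔZF1, for a log2 fold change of 1.98 ± 0.560 (adjusted p = 0.0839), with 1 and 5 counts in the ESC-WT libraries. In each of these 4, both ESC-ΔZF1 libraries were above both ESC-WT libraries. As the 4 were picked by adjusted p from the same libraries, this separation is no further support. Ranges did not overlap, in either direction, in 14 of the 19 members tested, and the share over all genes is not given here. The calls depended on the filter and on the libraries fitted: with no filter on low counts Pcdhga7, Pcdhga8 and Pcdhgc3 were called higher, and in a fit of these 4 libraries alone Pcdhga3 and Pcdhgb2 were called as well, 5 members in all. The lowest log2 fold change among the tested members was -0.37 ± 0.499, for Pcdhgc4. The 371 other genes tested on chromosome 18 had a median of 0.04, and all genes tested one of -0.01.

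In NPCs, 3 of 19 members were higher in NPC-ΔZF1 than in NPC-WT and 0 were lower, where 17.6% of all genes tested were called and 7.19% were called higher. The gamma sum was 18.14 and 18.05 CPM in NPC-WT and 25.9 and 27.6 in NPC-ΔZF1, a ratio of means of 1.48 without overlap. NPC E14 WT, untreated and normalized separately, summed to 21.9 to 28.8 CPM, a range that held both NPC-ΔZF1 libraries and neither NPC-WT library. Here too single members differed from the sum, as Pcdhga12 was lower in both rescues than in NPC E14 WT (2.02 to 2.91 CPM). Pcdhga8 was at 0.339 and 0.430 CPM in NPC-WT and at 1.45 and 1.66 in NPC-ΔZF1, for a log2 fold change of 2.04 ± 0.410 (adjusted p = 0.00756). Pcdhga7 was at 0.678 and 0.773 CPM in NPC-WT and at 1.30 and 2.43 in NPC-ΔZF1, for a log2 fold change of 1.37 ± 0.399 (adjusted p = 0.0365). Pcdhgc3 was at 4.36 and 3.61 CPM in NPC-WT and at 7.86 and 6.22 in NPC-ΔZF1, for a log2 fold change of 0.80 ± 0.226 (adjusted p = 0.0328). In all 3 both NPC-ΔZF1 libraries were above both NPC-WT libraries, which is no further support for calls made on the same libraries. Overlap of ranges over the members tested was not set against all genes here either. All 3 calls were lost without NPC-ΔZF1 replicate 2, where Pcdhga8 had an adjusted p = 0.0614, Pcdhga7 was also lost without NPC-WT replicate 1, and Pcdhgc3 without NPC-ΔZF1 replicate 1. DESeq2 called Pcdhga8 alone. Pcdhga4 had the same log2 fold change as Pcdhga8, 2.04, but with an SE of 0.879 and an adjusted p = 0.127. Pcdhga12, Pcdhga11 and Pcdhgb8, which were high in ESCs, did not pass in NPCs, with log2 fold changes of 0.02 ± 0.250, -0.12 ± 0.329 and -0.26 ± 0.409. The C-type isoforms Pcdhgc4 and Pcdhgc5 did not pass either, with 0.20 ± 0.384 and -0.26 ± 0.396. The other genes tested on chromosome 18 had a median of 0.10.

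**Figure D3:**
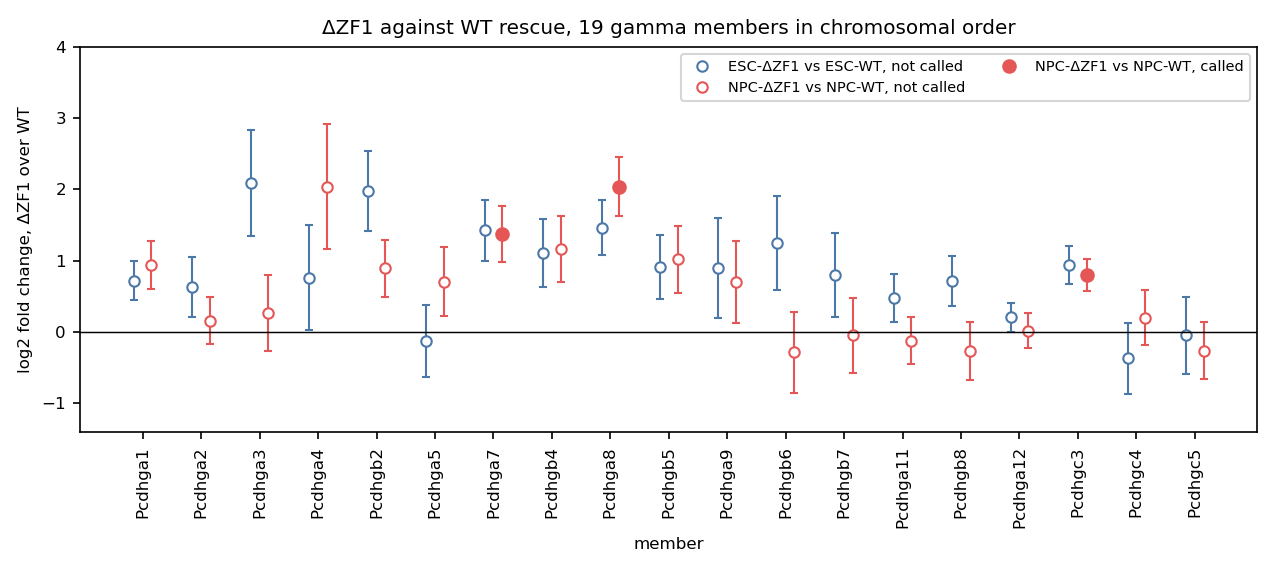
Log2 fold change of ΔZF1 over WT rescue for the 19 gamma members tested, in chromosomal order, in ESCs (blue) and NPCs (red), with bars for the standard error and filled points for members called at an adjusted p of at most 0.05. Pcdhga7, Pcdhga8 and Pcdhgc3 are filled in NPCs at 1.37, 2.04 and 0.80, and their ESC values of 1.42, 1.46 and 0.94 are open.

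Whether the ΔZF1 effect differed between NPCs and ESCs was tested over the 4 groups in the same fit. No member passed, with 0 of 19 called by edgeR, 0 with an unadjusted p under 0.05 and 0 called by DESeq2, where 2.70% of all genes tested were called. The NPC effect minus the ESC effect, on the log2 scale, was 0.57 ± 0.578 for Pcdhga8, -0.05 ± 0.631 for Pcdhga7 and -0.14 ± 0.351 for Pcdhgc3. The furthest from 0 was Pcdhga3 at -1.82 ± 0.941 (adjusted p = 0.334), with 3 and 2 counts in ESC-WT. The ESC and NPC effects share no libraries with each other, but each shares its libraries with a differentiation comparison, so that ESC-WT, for example, enters both ESC-ΔZF1 over ESC-WT and NPC-WT over ESC-WT.

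Markers of other cell types moved with these groups. The 12 extraembryonic endoderm markers summed to 195 to 227 CPM in NPC-WT, with Apoa1 at 0 counts, and to 1884 to 1968 in NPC-ΔZF1. All 11 of the 11 tested were called higher in NPC-ΔZF1. Of all genes tested, 17.6% were called between NPC-ΔZF1 and NPC-WT, and 7.19% were called higher. The 6 surface ectoderm markers summed to 2941 to 4269 CPM in NPC-WT and to 1199 to 1258 in NPC-ΔZF1, with 5 called lower and 1 higher. In ESCs the endoderm markers summed to 31.9 to 76.1 CPM in ESC-WT and to 31.1 to 51.6 in ESC-ΔZF1, and the surface ectoderm markers to 193 to 270 and 168 to 203. The 6 mesoderm markers summed to 42.5 to 52.1 CPM in NPC-WT, with Mesp1 at 0 counts, and to 22.5 to 23.0 in NPC-ΔZF1, with 2 of the 5 tested called lower and 0 higher. The 8 neuron markers summed to 114 to 131 CPM in NPC-WT and to 145 to 150 in NPC-ΔZF1, with 2 of the 5 tested called higher and 1 lower. The 11 neural progenitor markers summed to 157 to 204 CPM in NPC-WT and to 178.6 to 179.5 in NPC-ΔZF1. Of the 9 tested, 4 were called higher in NPC-ΔZF1 and 1 lower. Fabp7 was at 0 counts in both groups and Hes5 in NPC-WT. NPC E14 WT held 535 to 698 CPM of endoderm markers, NPC Podxl pA 1140 to 1201 and NPC Grb10 pA 420 to 552. The part of these cells in the protocadherin values of the NPC groups was not tested.

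**Figure D4:**
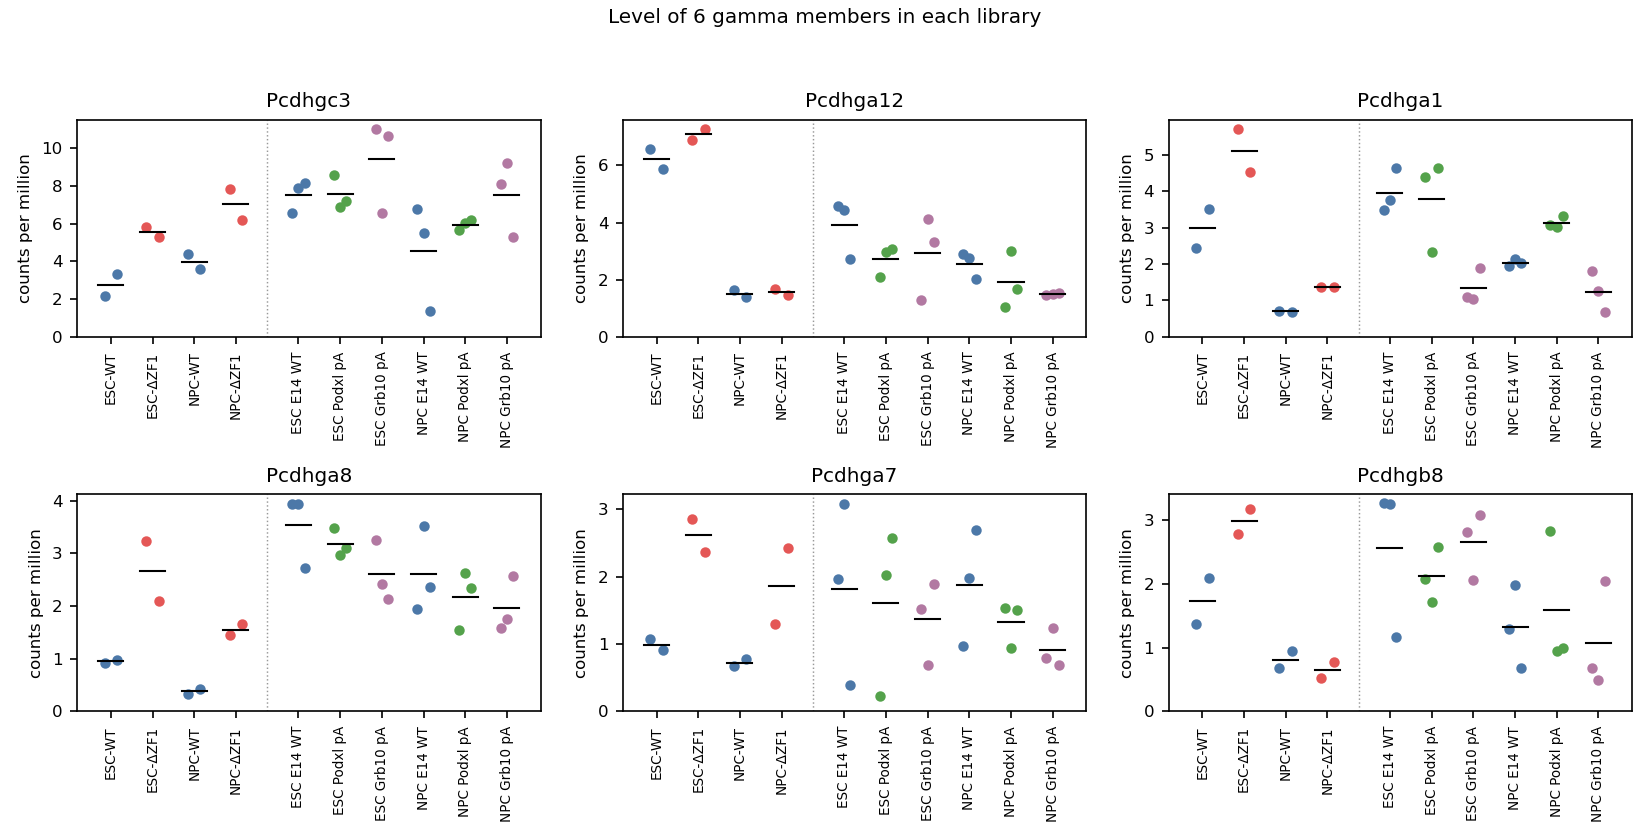
CPM of 6 gamma members in each library (points) with the group mean (line), rescue lines left of the dotted line and truncation lines right of it. Pcdhga12 and Pcdhga1 are lower in NPC-WT and NPC-ΔZF1 than in the ESCs of the same line, Pcdhga8 and Pcdhga7 are higher in both ΔZF1 groups than in the WT rescue of the same cell type, and Pcdhgc3 has a low library, at 1.35 CPM, in NPC E14 WT.

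Truncation of Podxl left the members without a call in either cell type. Between ESC Podxl pA and ESC E14 WT, 0 of 9 members were called by edgeR and 0 by DESeq2, with 1 at an unadjusted p under 0.05, where 0.339% of all genes tested were called. Between NPC Podxl pA and NPC E14 WT, 0 of 9 were called by edgeR and 0 by DESeq2, with 0 at an unadjusted p under 0.05, where 0.550% were called. The gamma sum was 37.6 ± 7.26 CPM (n = 3) in ESC Podxl pA against 42.8 ± 4.45 in ESC E14 WT, and 28.2 ± 0.552 in NPC Podxl pA against 26.02 ± 3.64 in NPC E14 WT, and the ranges overlapped in both. Pcdhgc3 was at 8.56, 6.87 and 7.21 CPM in ESC Podxl pA and at 5.65, 6.02 and 6.17 in NPC Podxl pA, within or overlapping the E14 WT ranges of the same cell type. Its log2 fold change against E14 WT was 0.01 ± 0.288 in ESCs and 0.32 ± 0.313 in NPCs.

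In Grb10 pA ESCs, 1 of 9 members was lower than in ESC E14 WT and 0 were higher, where 9.09% of all genes tested were called and 4.58% were called lower. This was Pcdhga1, at 1.08, 1.04 and 1.90 CPM in ESC Grb10 pA against 3.49, 3.77 and 4.66 in ESC E14 WT, with no overlap and a log2 fold change of -1.49 ± 0.395 (adjusted p = 0.0105). DESeq2 also called it, and the call was lost without ESC Grb10 pA replicate 1 (adjusted p = 0.0528), where Pcdhga11 was called lower instead (adjusted p = 0.0242). Gamma A members together summed to 13.7 ± 1.95 CPM in ESC Grb10 pA against 23.4 ± 3.35 in ESC E14 WT, a ratio of 0.583 without overlap, and gamma B members gave a ratio of 0.640, also without overlap. The C-type sums overlapped, with 12.1 ± 3.20 and 8.77 ± 1.19 CPM, so that they took 36.8% ± 3.78 of gamma counts in ESC Grb10 pA and 20.8% ± 4.47 in ESC E14 WT, without overlap. In NPCs the gamma A sum was 8.87 ± 0.437 CPM in NPC Grb10 pA and 14.5 ± 1.05 in NPC E14 WT, a ratio of 0.613 without overlap, and the C-type sum was 10.6 ± 2.08 against 6.49 ± 3.501. None of the 9 members was called between these NPCs by edgeR or by DESeq2, with 1 at an unadjusted p under 0.05, where 16.5% of all genes tested were called. That member was Pcdhgc3, at 8.10, 9.22 and 5.30 CPM in NPC Grb10 pA and at 6.80, 5.50 and 1.35 in NPC E14 WT, a log2 fold change of 0.64 ± 0.295 (adjusted p = 0.106). It was called without NPC Grb10 pA replicate 3 (adjusted p = 0.0486), and Pcdhgc5 was called without NPC E14 WT replicate 1 (adjusted p = 0.0450). Marker lists moved with the Grb10 pA line. The neuron markers summed to 207 to 235 CPM in ESC Grb10 pA against 324 to 341 in ESC E14 WT, with 1 of the 4 tested called lower, and to 62.8 to 63.1 in NPC Grb10 pA against 132 to 140 in NPC E14 WT, with 2 called lower. Dcx was at 0 counts in both E14 WT groups, as was Rbfox3 in ESC E14 WT. The pluripotency markers summed to 4774 to 4892 CPM in ESC Grb10 pA against 4203 to 4330 in ESC E14 WT, with 0 of 10 called higher and 1 lower, and to 946 to 1020 against 736 to 876 in NPCs, with 4 called higher and 1 lower. Of the 8 progenitor markers tested in NPCs, 2 were higher and 3 lower in Grb10 pA. Their part in the protocadherin values was not tested. Both Grb10 pA comparisons share their WT libraries with those of Podxl pA.

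The same comparisons were made for 4 lists of related genes. Between NPC-WT and ESC-WT the median log2 fold change was 3.45 for protocadherins outside the clusters, -0.12 for regulators of the promoters, 0.11 for partners of the proteins and 0.02 for chromosomal neighbours, against 0.01 for all genes tested. Of 12 protocadherins outside the clusters, 5 were tested in the rescue lines, and 3 were higher and 1 lower in NPC-WT than in ESC-WT. Of all genes tested, 41.9% were called. The 12 summed to 22.6 to 28.0 CPM in ESC-WT, with Pcdh15 and Pcdh20 at 0 counts, and to 107 to 119 in NPC-WT. Members of this list could pass the filter through the NPC groups, so its median and calls describe the 5 that passed. Pcdh1, which encodes a non-clustered delta protocadherin, had a log2 fold change of 3.66 ± 0.194 (adjusted p = 7.50e-07), Pcdh18 of 3.57 ± 0.482 (adjusted p = 0.000217) and Pcdh12, a protocadherin of endothelium and trophoblast, of 3.45 ± 0.543 (adjusted p = 0.000564). Pcdh19 had -0.92 ± 0.153 (adjusted p = 0.000790). In E14 WT, 3 of 4 tested were higher in NPCs and 0 were lower, where 32.8% of all genes were called. In NPC-ΔZF1 against NPC-WT, 1 of 5 was higher and 2 were lower, where 17.6% of all genes were called. Between ESC-ΔZF1 and ESC-WT 0 of 5 were called, where 3.61% of all genes were.

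All 28 regulators on the list of CTCF, cohesin, DNA methylation and silencing factors could be tested. Between NPC-WT and ESC-WT 5 were higher and 7 lower, near the 41.9% called among all genes. The lowest adjusted p-values were those of the DNA demethylases Tet2, with a log2 fold change of -2.76 ± 0.106 (adjusted p = 2.78e-07), and Tet1, with -2.87 ± 0.123 (adjusted p = 4.28e-07). The repressor Rest followed with -1.09 ± 0.0934 (adjusted p = 1.04e-05), and Dnmt3l, a cofactor of de novo methylation, with 1.44 ± 0.154 (adjusted p = 4.73e-05). Between ESC-ΔZF1 and ESC-WT, 1 of 28 was called, where 3.61% of all genes were called. This was Ctcf itself, at 562 to 577 CPM in ESC-WT and 831 to 860 in ESC-ΔZF1, with a log2 fold change of 0.57 ± 0.0928 (adjusted p = 0.0161). In NPCs 4 were higher in ΔZF1 and 0 lower, where 17.6% of all genes were called. Ctcf was at 449 to 474 CPM in NPC-WT and 785 to 798 in NPC-ΔZF1. Counts on Ctcf sum the degron-tagged endogenous gene and, as far as its coding sequence is counted, the transgene. In E14 WT 5 were higher and 3 lower in NPCs, where 32.8% of all genes were called. ESC Grb10 pA had 0 higher and 2 lower than ESC E14 WT, where 9.09% of all genes were called. Ctcf was among the 2, at 134 to 157 CPM against 229 to 233 in ESC E14 WT.

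Of 20 partners and signalling genes of the proteins, 19 were tested, and 6 were higher and 1 lower in NPC-WT than in ESC-WT, where 41.9% of all genes were called. The lowest adjusted p-values were those of Cyfip2, a subunit of the WAVE complex to which protocadherins bind, with a log2 fold change of 1.02 ± 0.114 (adjusted p = 6.53e-05), and Marcks, an actin regulator, with 0.86 ± 0.107 (adjusted p = 0.000130). Ptk2b, the kinase Pyk2 that protocadherins inhibit, had 1.84 ± 0.238 (adjusted p = 0.000165), and the kinase Fyn had 0.76 ± 0.129 (adjusted p = 0.000904). In NPC-ΔZF1 against NPC-WT 1 was higher and 4 were lower, Cyfip2 and Ptk2b among them, where 17.6% of all genes were called. Between ESC-ΔZF1 and ESC-WT 1 was higher and 1 lower, where 3.61% were called.

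Of 19 genes on either side of or between the clusters on chromosome 18, 17 were tested. Between ESC-ΔZF1 and ESC-WT none of them was called, where 3.61% of all genes were called. Between NPC-ΔZF1 and NPC-WT 0 were higher and 3 were lower, a share near the 17.6% called among all genes. In differentiation 4 were higher and 2 lower in NPC-WT than in ESC-WT, where 41.9% of all genes were called. The neighbour Arap3 had a log2 fold change of 3.73 ± 0.281 (adjusted p = 4.98e-06), Taf7, which lies between the beta and gamma clusters, of -1.02 ± 0.101 (adjusted p = 3.00e-05), and Fchsd1 of 1.27 ± 0.224 (adjusted p = 0.00112), besides Pcdh1, which is also on this list. Between NPC Grb10 pA and NPC E14 WT 4 neighbours were higher and 0 were lower, where 16.5% of all genes were called.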

How the data were processed

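The values are raw read counts per gene, as deposited in a table of the rescue lines and another of the truncation lines. The authors aligned reads with STAR (default parameters, mm10) and made these counts with featureCounts, without strand; the annotation is not given in the sources used here. Of the truncation table, 3 columns match no sample and were not used. Each table was filtered by expression and fitted with edgeR 4.0.16 in R 4.3.3 (TMM scaling, quasi-likelihood test, all groups of the table). Calls needed a Benjamini-Hochberg adjusted p of 0.05 or less and a log2 fold change of 0.5 or more in size. The tests were tried on simulated data first. The SE is the fold change divided by the square root of the F statistic. CPM used the TMM library sizes. Bases of a member shared with no other gene came from GENCODE M21. Members and gene lists were chosen with earlier results of these data known.

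Values per library are given for the 4 highest members of each cluster, the C-type members, called members and, in differentiation, the 4 called members with the largest change; each list of other genes has up to 4 genes with the lowest adjusted p. Alternatives were RLE scaling, no filter, at least 10 counts in every library, cutoffs of 0.01 or without a fold change, only the groups compared, the replicate number as a block, each library left out, and DESeq2 1.42.0. The tables were normalized separately, so levels across them are only set side by side. Intervals and floors cover counting error only.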

Additional observations from a re-analysis of the deposited data

How the results depend on the processing

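Counts of called members were recomputed under every alternative. Between ESC-ΔZF1 and ESC-WT, 3 members were called without a filter on low counts and 5 with only the groups compared, all higher, and 0 without any 1 library. Between NPC-ΔZF1 and NPC-WT, 1 was called at an adjusted p of 0.01, with at least 10 counts in every library, with only the groups compared and in DESeq2, and 0 to 3 without 1 library, 0 without NPC-ΔZF1 replicate 2. Between NPC-WT and ESC-WT, 2 were called at 0.01, with only the groups compared and in DESeq2, 1 with at least 10 counts, and 2 to 5 without 1 library, 2 without ESC-WT replicate 2. Between NPC-ΔZF1 and ESC-ΔZF1, 1 was called with at least 10 counts, 5 without a filter, 6 with only the groups compared (Pcdhga8 and Pcdhgb5 added), and 3 to 4 without 1 library. For NPC E14 WT against ESC E14 WT, 0 were called at 0.01 and with at least 10 counts, with no member left to test, 1 in DESeq2 (Pcdhac2, higher), and 0 to 2 without 1 library. In the E14 WT comparison 0 were left without ESC replicate 1 or NPC replicate 3, and 1 without ESC replicate 2 or NPC replicate 2. For NPC Grb10 pA against ESC Grb10 pA, 0 were called at 0.01, with at least 10 counts, with only the groups compared and in DESeq2, and 0 to 2 without 1 library, 0 without ESC replicate 3 or NPC replicate 2 and 2 without NPC replicate 1. For ESC Grb10 pA against ESC E14 WT, 0 were called at 0.01 and with at least 10 counts, and for NPC Grb10 pA against NPC E14 WT 0 to 1 without 1 library. The Podxl pA comparisons and the difference between the ΔZF1 effects gave 0 calls in every alternative. Other than where fewer members were tested, the cause was not tested. The fold changes of the called members, recomputed for the comparisons that called them, kept their direction.

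Whether replicate numbers pair the libraries was not settled. Deviations of same-numbered libraries correlated from -0.06 to 0.10 in the rescue comparisons, where 2 libraries a group give 1 value per comparison. In the truncation comparisons they correlated from -0.18 to 0.13, and no comparison of 3 pairs had every pair over 0.1. Every library correlated best with its own number in 2 of the 7 truncation comparisons. These were NPC against ESC Podxl pA, with correlations of 0.0372 to 0.0406, and NPC Grb10 pA against NPC E14 WT, with 0.0754 to 0.107. With the replicate block, 0, 2, 3 and 4 members were called in ESC-ΔZF1, NPC-ΔZF1, NPC-WT and NPC-ΔZF1 differentiation, and 3, 1 and 1 in NPC E14 WT, NPC Grb10 pA differentiation and ESC Grb10 pA, with 0 in the others.

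Depth limits these results: alpha and beta members had at most 16 counts in a library and none passed the filter, and only 9 gamma members passed the filter in the truncation lines.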
